A study of Mus musculus with 18 samples.

Results

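LNA1, an antisense oligonucleotide directed against the long non-coding RNA Gm15551, was compared with the non-targeting control oligonucleotide ctrlA in unstimulated brown adipocytes. The comparison used 6 of the 18 libraries of the series, 3 with LNA1 and 3 with ctrlA, chosen by their labels and paired by the replicate numbers 2, 3 and 4. All cells were of the mouse line wt1-SAM, an immortalised brown preadipocyte line that stably carries the SAM machinery for CRISPR activation, so that LNA1 and ctrlA cells alike hold that system. Cells of both groups were differentiated for 7 days in medium with rosiglitazone and transfected in suspension on day 4, each well taking up 500000 cells and 1.4 µl of a 10 µM stock, and they received no isoproterenol. The same LNAs in cells given 1 µM isoproterenol for 24 h (3 libraries each), and a second oligonucleotide against Gm15551, LNA2, served for comparison. The labels do not say whether the replicate numbers stand for separate cultures, so p-values measure only the spread between these libraries, which may be technical. As these are libraries from 1 cell line, they do not show how other lines or animals vary.

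A gapmer is a short oligonucleotide with locked nucleic acid (LNA) bases at its ends and a DNA stretch in the middle. Once paired with an RNA, it lets RNase H cut that RNA, and a transcript other than the intended one can be cut as well where it pairs well enough. Brown adipocytes burn lipid to make heat through the uncoupling protein Ucp1, and Gm15551 is a low-abundance transcript read from the opposite strand within the gene Camk2d, which encodes a calcium and calmodulin dependent kinase.

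The oligonucleotides and the site of LNA1 are shown because transcripts are later listed by how many bases they share with that site. The ctrlA sequence was taken to be the entry named negative control A in the study's table of LNAs, which lists a further control, since the names match. In the Gm15551 site, capitals mark the bases that pair with LNA1.

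LNA1: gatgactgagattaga

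ctrlA: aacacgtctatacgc

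Gm15551 site: TCTAATCTCAGTCATC

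All 16 bases of LNA1 matched the reverse strand of a single gene among the spliced transcripts of GENCODE M21 (GRCm38). That gene was Gm15551 (ENSMUSG00000086679.2), and the site lay in exon 2 of 2, at positions 347 to 362 of its 535-base transcript (chr3:126667502-126667517, minus strand). No gene carried a full-length site with 1 mismatch.

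The targeted transcript was examined first. Gm15551 had 14, 8 and 7 counts in ctrlA replicates 2, 3 and 4, and 12, 3 and 3 counts in the LNA1 libraries of the same numbers. LNA1 replicates 3 and 4 were thus at the floor of 3 counts, and the groups overlapped through LNA1 replicate 2. Gm15551 averaged 0.647 ± 0.127 CPM (counts scaled to library size) with ctrlA and 0.530 ± 0.424 CPM with LNA1 (SD, n = 3 each). In edgeR, fitted with no filter on low counts, its log2 fold change was -0.45 (SE 0.61, adjusted p 0.992). In 2 of 3 pairs the LNA1 library held less. An exact two-sided permutation test of the 6 levels gave p = 0.6, but it leaves out the pairing and cannot pass 0.05 with 20 arrangements, whose smallest p is 0.1. With counts this low, a knockdown was not detectable by the edgeR fit in these libraries. Camk2d, the gene around it, had a log2 fold change of 0.03 (edgeR adjusted p 0.935).

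Libraries held 11927769 to 19723021 counts with ctrlA and 9167560 to 14114672 with LNA1. Both replicate 2 libraries stood apart from the others. The ribosomal RNA gene CT010467.1 took 5.80% of the counts in ctrlA replicate 2 and 14.3% in LNA1 replicate 2, against 0.285% to 0.564% in replicates 3 and 4, and mitochondrial genes took 8.51% to 8.76% against 4.03% to 4.46%. All 9 adipocyte markers averaged above 1 CPM, with summed levels of 23323 to 31467 CPM in ctrlA and 21202 to 27982 CPM in LNA1 libraries. The 9 brown adipocyte markers summed to 382 to 458 CPM with ctrlA and 297 to 382 CPM with LNA1, and 7 of them averaged above 1 CPM. The 10 macrophage markers summed to 10.8 to 14.7 CPM with ctrlA and 13.04 to 17.3 CPM with LNA1, with Tyrobp at 0 in all 6 libraries. Markers of skeletal muscle summed to 6.24 to 9.16 and 6.03 to 9.23 CPM, with Myf5 and Mymk at 0.

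Of the genes past both the adjusted p and the fold limit, more rose than fell with LNA1, while over all tested genes 6610 log2 fold changes were positive and 8339 negative. Sh3d21 and Fam83e, which encode an SH3 domain protein and a member of a family that binds casein kinase 1, rose most among genes of at least 1 CPM with reads in ctrlA, while the chromatin remodeller gene Chd2 doubled from a high level and Mrps28, which encodes a protein of the mitochondrial ribosome, fell most. With the replicate number as a block, 90 of 14949 genes passed an adjusted p of 0.05 and an absolute log2 fold change of 0.5 in edgeR (0.602%), 74 of them higher (0.495%) and 16 lower (0.107%). The block decided these calls. Without it 0 genes passed, with 427 genes at an unadjusted p under 0.05. All 90 genes kept their direction and 64 of them had an unadjusted p under 0.05, which is a description only. The genes were chosen from these same libraries, and each group holds the same replicate numbers, so leaving out the block hardly moves a fold change. The count was 24, 25 and 4 without the libraries of replicates 2, 3 and 4. It was 28 and 17 without ctrlA replicates 3 and 4, 53, 31 and 23 without LNA1 replicates 2, 3 and 4, and 53 without stimulated LNA1 replicate 4. Sh3d21, Chd2, Slc39a14 and Mrps28, chosen here after their values were seen, were called in all 15 fits that left out a library or a replicate number. Without replicate 4 the edgeR adjusted p of each of these 4 genes was 0.0444, close to the limit. Without the block it was 0.0825 for Sh3d21, 0.479 for Chd2 and 0.24 for Slc39a14. Each call outside these 4 genes was lost without replicate 4.

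**Figure D1:**
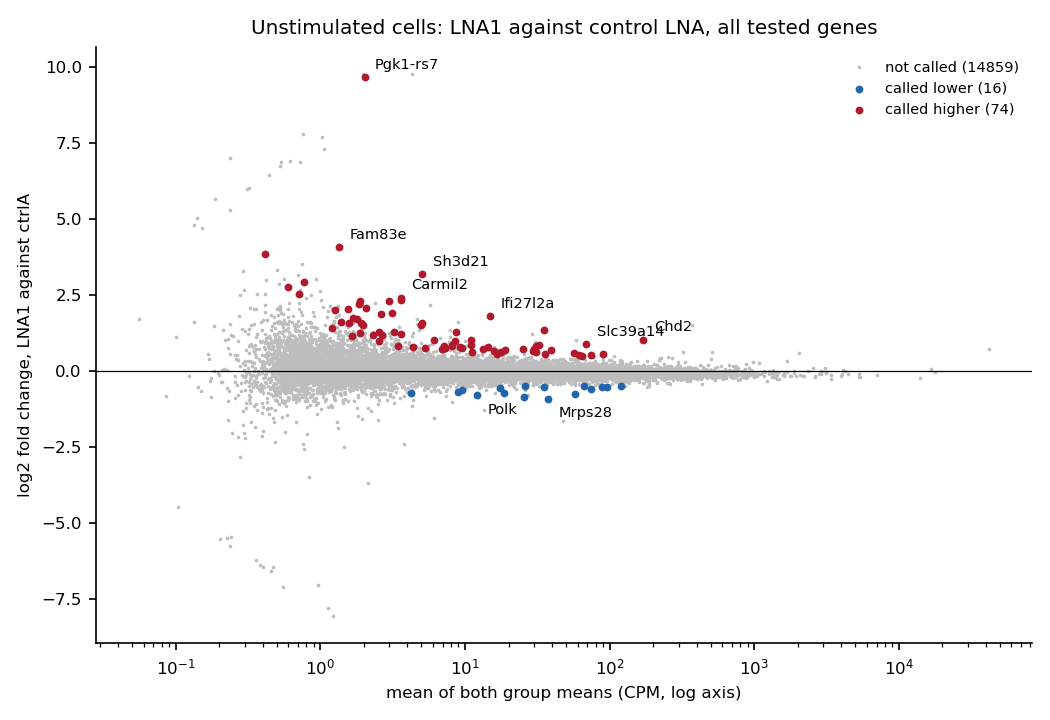
Log2 fold change of LNA1 against ctrlA in unstimulated cells (vertical axis) against the mean of both group means in CPM (horizontal log axis) for the tested genes. Red points are the 74 genes called higher, which reach down to levels under 1 CPM, and blue points the 16 called lower, none of which averaged under 1 CPM with ctrlA.

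Genes called higher were mostly of low count. With ctrlA their median was 3.98 CPM against 21.1 CPM over all tested genes. Of the 74, 19 averaged under 1 CPM with ctrlA (12.9% of all tested genes did) and 15 averaged at least 20 CPM (50.9%). By contrast 12 of the 16 genes called lower averaged at least 20 CPM, with a median of 37.1 CPM. The rises were also larger. They went from 0.50 upwards on the log2 scale, 39 of 74 exceeded 2-fold and 15 exceeded 4-fold, whereas the falls lay between 0.50 and 0.92 and 0 exceeded 2-fold. At an adjusted p under 0.05 with no limit on the fold, 146 genes passed (0.977%), 93 higher and 53 lower, so that the excess of rises was smaller without the fold limit. In 49 of the 74 and in 7 of the 16 genes the groups did not overlap (6.79% of all tested genes), and in all 90 the difference had 1 sign in all 3 pairs. These counts come from the libraries that chose the genes and are descriptions only.

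The called genes were ordered by the known role of each after their values were seen, and these roles were not tested as groups. Sh3d21 (ENSMUSG00000073758.10, chr4:126150602-126163491) had 0.681, 1.01 and 1.22 CPM in ctrlA replicates 2, 3 and 4 and 5.26, 8.87 and 13.4 CPM with LNA1. The lowest LNA1 library was thus well above the highest ctrlA library. Its log2 fold change was 3.18 with an SE of 0.245 (edgeR adjusted p 1.09e-05). Without the block the value was 3.24 with an adjusted p of 0.0825.

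Fam83e (ENSMUSG00000054161.12, chr7:45721212-45729492) had 2, 4 and 0 counts with ctrlA and 21, 29 and 33 with LNA1. All LNA1 libraries were higher than all ctrlA libraries, but the ctrlA level was near the floor of 3 counts. Its log2 fold change was 4.07 with an SE of 0.57 (edgeR adjusted p 0.00259), and the call was lost without replicate 2 (adjusted p 0.121) and without replicate 4 (0.233).

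Carmil2, which encodes a regulator of actin capping, had 0.454, 1.59 and 1.31 CPM with ctrlA and 2.29, 7.01 and 8.95 CPM with LNA1. Fes, which encodes a cytoplasmic tyrosine kinase, had 0.511, 1.44 and 1.06 CPM and 2.72, 5.68 and 6.61 CPM. Sh2d5, an SH2 domain adaptor gene, had 1.08, 1.08 and 1.22 CPM and 2.97, 7.45 and 8.04 CPM. In each of the 3 genes LNA1 replicate 2 was the lowest LNA1 library and still exceeded every ctrlA library. Their log2 fold changes were 2.41, 2.31 and 2.33 (SE 0.27, 0.25 and 0.28), with adjusted p of 2.86e-04, 2.19e-04 and 6.36e-04 in edgeR, and the calls were lost without replicate 4 (adjusted p 0.136, 0.136 and 0.240). Exons of Carmil2 overlap those of Acd on the opposite strand. Acd itself went from 61.4 ± 11.9 to 55.4 ± 12.1 CPM (SD, n = 3 each), with an adjusted p of 0.497 in edgeR. Avil, which encodes the actin-binding protein advillin, rose from 0.629 ± 0.393 to 3.12 ± 1.27 CPM (log2 fold change 2.29 with an SE of 0.38, edgeR adjusted p 0.00871). Its exons overlap Tsfm on the opposite strand. The call was lost in 2 of 12 fits that each left out 1 library (ctrlA or LNA1 replicate 4, adjusted p up to 0.0817).

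Among genes of nuclear proteins, Chd2 (ENSMUSG00000078671.11, chr7:73426638-73541830) was called from the most reads. Its levels were 92.9, 116 and 128 CPM with ctrlA and 174, 244 and 274 CPM with LNA1, and the groups did not overlap. Its log2 fold change was 1.02 with an SE of 0.09 (edgeR adjusted p 3.46e-05). Exons of Chd2 overlap Gm44686 on the opposite strand. Chaserr, the long non-coding RNA gene next to Chd2 that is known to restrain it, stood at 27.4 ± 3.25 CPM with ctrlA and 31.5 ± 5.29 CPM with LNA1, with a log2 fold change of 0.20 (edgeR adjusted p 0.802). Arid1b, which encodes a subunit of the BAF chromatin remodelling complex, went the other way. Its levels were 38.7, 88.9 and 92.7 CPM with ctrlA and 26.6, 53.5 and 45.3 CPM with LNA1, lower in all 3 pairs although replicate 2 made the groups overlap. It fell by 0.78 on the log2 scale with an SE of 0.10 (edgeR adjusted p 0.00198), and the adjusted p was 0.233 without replicate 4. Chd2, Chaserr, Acd and Arid1b were singled out after their values were seen.

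Slc39a14, which encodes the zinc and iron importer ZIP14, had 40.3, 50.6 and 54.2 CPM with ctrlA and 79.8, 79.7 and 109 CPM with LNA1, so that every LNA1 library exceeded every ctrlA library. Its log2 fold change was 0.88 with an SE of 0.08 (edgeR adjusted p 3.57e-05), and it too was singled out after its values were seen. Slc31a1, which encodes the copper importer CTR1, had 102, 83.4 and 81.5 CPM with ctrlA and 76.1, 51.1 and 50.6 CPM with LNA1. It fell by 0.60 on the log2 scale with an SE of 0.08 (edgeR adjusted p 0.00121), a call lost without replicate 4 (adjusted p 0.263).

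Of genes of energy metabolism, Ckb, which encodes the creatine kinase that takes part in creatine cycling in brown fat, rose from 0.639 ± 0.0764 to 3.07 ± 1.34 CPM (log2 fold change 2.19, edgeR adjusted p 0.0133). That call was lost in 4 of 12 fits that each left out 1 library, those without replicate 3 or 4 of either group (adjusted p up to 0.110). Mrps28 (chr3:8802146-8923918) had 74.1, 37.8 and 34.99 CPM with ctrlA and 40.7, 19.7 and 17.9 CPM with LNA1. In each pair the LNA1 library was lower, and the overlap of the groups came from the higher level of both replicate 2 libraries. Its log2 fold change was -0.92 with an SE of 0.09 (edgeR adjusted p 1.45e-04). Without the block its unadjusted p was 0.063.

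Genes of immune or secreted proteins that rose included Ifi27l2a, an interferon-induced gene, with 13.8, 3.32 and 3.83 CPM with ctrlA and 34.9, 17.5 and 16.7 CPM with LNA1. Its groups did not overlap, the log2 fold change was 1.79 with an SE of 0.21 (edgeR adjusted p 5.03e-04), and the adjusted p was 0.136 without replicate 4. Chil1, which encodes a chitinase-like lectin, rose from 0.784 ± 0.310 to 3.39 ± 0.790 CPM (log2 fold change 2.07, edgeR adjusted p 0.0133), a call lost in 3 of 12 fits that each left out 1 library (ctrlA replicate 3 or 4, or LNA1 replicate 4, adjusted p up to 0.110). Stab1, the gene of the scavenger receptor stabilin-1, which is known to take up phosphorothioate oligonucleotides, rose from 0.795 ± 0.345 to 2.37 ± 0.989 CPM (log2 fold change 1.57, edgeR adjusted p 0.0343). Its exons overlap Nt5dc2 on the opposite strand, and the call was lost in 8 of 12 fits that each left out 1 library, among them each of the 6 unstimulated ones (adjusted p up to 0.171). Gp5, Ephx3, Gm42547 and Gm8251 completed the genes named by size, with rises of 2.02, 2.00, 1.91 and 1.86 on the log2 scale, lost as calls in 11, 6, 7 and 5 of those 12 fits.

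Pgk1-rs7, annotated as a processed pseudogene of the glycolytic enzyme gene Pgk1, had 0 counts in all 3 ctrlA libraries and 75, 24 and 36 counts with LNA1. Against the floor of 3 counts per library it was at least 19.3-fold higher with LNA1 (edgeR adjusted p 0.0183, 0.593 in DESeq2). The call was lost in each fit without 1 of the unstimulated ctrlA libraries and without LNA1 replicate 3 or 4 (adjusted p up to 0.149). Its reads can be shared with Pgk1, and in stimulated cells it had 2.05 CPM in 1 ctrlA library and 0 in every other ctrlA and LNA1 library.

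The falls outside these groups were small. Polk, which encodes a DNA polymerase that copies past damaged bases, had 17.6, 14.7 and 13.5 CPM with ctrlA and 12.6, 7.54 and 6.41 CPM with LNA1 (log2 fold change -0.81 with an SE of 0.17, edgeR adjusted p 0.0338). St7 went from 23.1 ± 2.10 to 14.1 ± 1.91 CPM (log2 fold change -0.71, edgeR adjusted p 0.00436) and Dtwd2, the gene of a tRNA-modifying enzyme, from 5.31 ± 0.787 to 3.22 ± 0.155 CPM (log2 fold change -0.72, edgeR adjusted p 0.0362). In all 3 genes the groups did not overlap. The call of St7, whose exons overlap Gm26738 on the opposite strand, was lost without ctrlA replicate 4 (adjusted p 0.0533) and without each replicate number (0.109, 0.0738 and 0.161 without 2, 3 and 4). Those of Polk and Dtwd2 were lost in 7 and 11 of 12 fits that each left out 1 library, among them each of the 6 unstimulated ones (adjusted p up to 0.165 and 0.202).

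**Figure D2:**
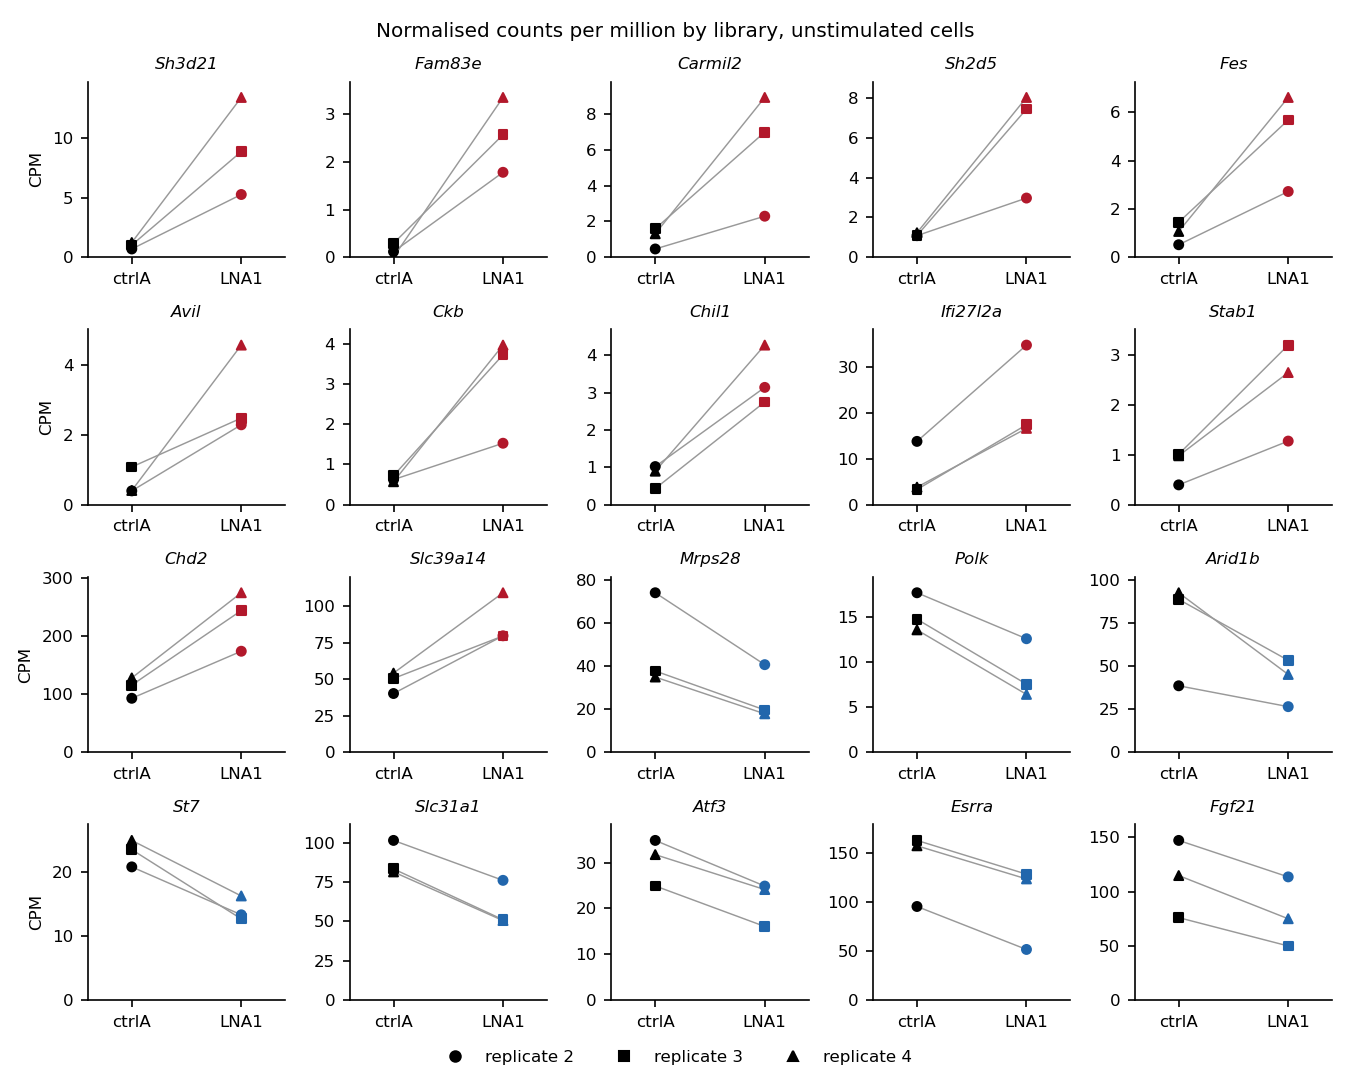
Levels in CPM (vertical axes, each from 0) of 20 called genes in the ctrlA and LNA1 libraries, with lines joining libraries of the same replicate number. Every line of a gene called higher goes up and every line of a gene called lower goes down, while replicate 2 differs in level from replicates 3 and 4 in Ifi27l2a, Mrps28, Arid1b and Esrra.

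Gene lists of adipocyte functions were followed next. Of 20 tested genes of brown fat thermogenesis, 0 were called higher and 2 lower (0.495% and 0.107% of all tested genes, the background for the other lists too), and the median log2 fold change of the list was -0.02, as over all tested genes (-0.02). The 2 genes were Esrra, a nuclear receptor gene that drives mitochondrial genes, and Fgf21, which encodes a hormone that brown fat secretes on activation. Esrra had 95.1, 162 and 157 CPM with ctrlA and 51.4, 128 and 123 CPM with LNA1 (log2 fold change -0.51, edgeR adjusted p 0.0456). Fgf21 had 147, 76.0 and 115 CPM with ctrlA and 114, 49.9 and 75.0 CPM with LNA1 (-0.52, adjusted p 0.0353). Both were lower in all 3 pairs with overlapping groups, and the calls were lost in 11 and 8 of 12 fits that each left out 1 library (adjusted p up to 0.252 and 0.216). Exons of Esrra overlap Trmt112 on the opposite strand. At an adjusted p under 0.05 with no limit on the fold, 3 genes of the list passed in edgeR, all of them lower. The gene beside Esrra and Fgf21 was 1 of the 8 tested brown adipocyte markers and fell by less than the limit of 0.5. Ucp1 had -0.42 on the log2 scale (adjusted p 0.679, SE 0.33) and Ppargc1a, its coactivator gene, -0.17 (adjusted p 0.644).

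None of the 29 tested genes of adipocyte identity and lipid storage was called in edgeR, with 5 at an unadjusted p under 0.05. Pparg, the master regulator gene of adipocytes, had a log2 fold change of -0.01 (SE 0.06) and Adipoq, which encodes adiponectin, -0.03 (SE 0.08). Aqp7, the glycerol channel gene, had an adjusted p of 0.0365 but a log2 fold change of 0.32, under the limit of 0.5.

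In the stress and immune lists single genes stood out. Of 28 tested genes of NF-κB and acute phase, 1 was called higher, Serpina3n, a protease inhibitor gene of the acute phase (43.0, 11.8 and 11.99 CPM with ctrlA; 75.5, 16.1 and 26.1 CPM with LNA1; log2 fold change 0.80, edgeR adjusted p 0.0133). The call was lost in 4 of 12 fits that each left out 1 library (ctrlA replicate 3 or 4, or LNA1 replicate 2 or 4, adjusted p up to 0.110). Lcn2, which encodes lipocalin 2, had a log2 fold change of 0.63 with an adjusted p of 0.0666. Of 28 tested interferon response and RNA sensing genes, Ifi27l2a was the 1 called, and Ifi27, its relative beside it on the chromosome, had a log2 fold change of -0.26 (adjusted p 0.288). Of 24 tested p53 targets 2 were lower, Polk and Gdf15, a stress hormone gene (78.2 ± 14.4 to 55.2 ± 9.73 CPM; log2 fold change -0.50, edgeR adjusted p 0.0476), whose call was lost in all 12 fits that each left out 1 library (adjusted p up to 0.229). Cdkn1a and Mdm2, the canonical p53 targets, had log2 fold changes of -0.17 and -0.13 (adjusted p 0.263 and 0.599).

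Of 24 genes of the ER and integrated stress response, 1 was lower, the transcription factor gene Atf3 (30.5 ± 5.08 to 21.7 ± 4.88 CPM; log2 fold change -0.50, edgeR adjusted p 0.00871), a call lost in 6 of 12 fits that each left out 1 library (adjusted p up to 0.0649). In that list 23 genes had a negative log2 fold change (55.8% of all tested genes did) and 11 an unadjusted p under 0.05 (12.2%, or 1817, of all tested genes), and its median was -0.18. Psat1, a serine synthesis gene of this list, had an adjusted p of 0.0476 with a log2 fold change of -0.28.

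Of 21 tested gapmer-binding and RNA cleavage factors, Stab1 was the 1 called. Rnaseh1, the gene of the enzyme that cuts RNA paired with a gapmer, had a log2 fold change of -0.07 (adjusted p 0.891), and Nono, a paraspeckle gene, one of -0.13 (adjusted p 0.357). The lists of NRF2 targets and metallothioneins (20 genes), cholesterol synthesis (22), lysosome and endocytosis (26), extracellular matrix (27), the CaMKII family (4), the cell cycle (23), the mitochondrial genome (28) and the genes within 1 Mb of Gm15551 (5 tested of 45) each held 0 called genes in edgeR, with 6, 5, 4, 6, 0, 1, 1 and 0 at an unadjusted p under 0.05. Pmvk, of the cholesterol list, had an edgeR adjusted p of 0.0338, but its log2 fold change of -0.35 was under the fold limit. Timp3, of the matrix list, had a log2 fold change of -0.84 with an edgeR adjusted p of 0.0600. Beside 55.8% of all tested genes, negative values made up 21 of 23 in the cell cycle list, 22 of 26 in the lysosome list, 18 of 22 in cholesterol synthesis, 16 of 21 among gapmer-binding factors, 15 of 20 among NRF2 targets, 18 of 24 among p53 targets, 21 of 28 in the mitochondrial genome and 21 of 29 in the adipocyte list. They made up 16 of 27 in the matrix list, 10 of 20 in thermogenesis, 14 of 28 in the NF-κB list and 9 of 28 in the interferon list. Of 5 tested preadipocyte or fibroblast markers, 2 had a positive and 3 a negative log2 fold change, with a median of -0.16, and Cd34, a surface marker of progenitors, had -0.61 (adjusted p 0.634). Pdgfra, a receptor gene of preadipocytes, was the 1 called and rose from 7.75 ± 0.370 to 14.1 ± 0.253 CPM (log2 fold change 0.86, edgeR adjusted p 0.0183), a call lost without ctrlA replicate 3 or 4 or any LNA1 library of unstimulated cells (adjusted p up to 0.140). Its exons overlap Gm42802 and Gm42803 on the opposite strand. All 10 listed markers of that type summed to 43.0 to 44.4 CPM with ctrlA and 42.9 to 51.5 CPM with LNA1, with Dpp4 and Lum at 0. Whether this bears on any of the rises was not tested.

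**Figure D3:**
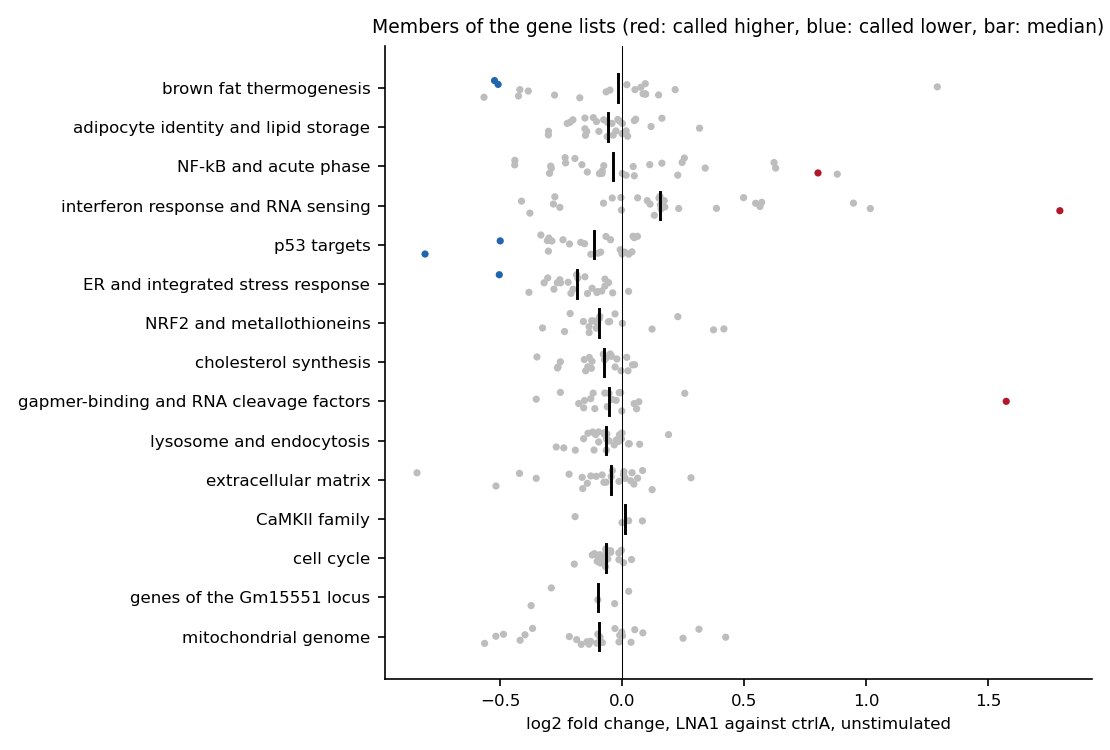
Log2 fold change of LNA1 against ctrlA in unstimulated cells for the tested members of each gene list, with red and blue for genes called higher and lower, grey for the others and a bar for the median. Medians lie between -0.18 in the ER and integrated stress response and 0.15 in the interferon list, and at most 2 members of a list are coloured.

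Whether the same genes moved in other libraries was read from stimulated cells, which share no library with the unstimulated comparison but share its fitted replicate terms and its estimate of the spread. There 217 genes were called with LNA1 (1.45%), 168 higher (1.12%) and 49 lower (0.328%), and 2 without the block. Of the 74 genes higher in unstimulated cells, 73 had a positive log2 fold change in stimulated cells (46.6% of all tested genes did) and 56 were called higher. Of the 16 genes lower, 16 had a negative value there (53.4% of all tested genes did) and 9 were called lower. The groups did not overlap in stimulated cells in 48 of the 74 and 6 of the 16 genes (7.53% of all tested genes). The count of genes called in stimulated cells fell to 68, 66 and 10 without replicates 2, 3 and 4, to 83 and 86 without stimulated ctrlA replicates 3 and 4, and to 77 and 97 without stimulated LNA1 replicates 3 and 4.

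Sh3d21 had 0.794 ± 0.441 CPM with ctrlA and 12.8 ± 6.02 CPM with LNA1 in stimulated cells (log2 fold change 3.93, edgeR adjusted p 7.81e-07), and Fam83e 0.582 ± 0.416 and 4.36 ± 0.887 CPM (2.99, adjusted p 0.00250). Chd2 rose by 1.17 (adjusted p 5.42e-06), Slc39a14 by 0.88 (adjusted p 1.88e-05), and Mrps28 fell by 1.19 on the log2 scale (adjusted p 5.70e-06). Ckb, Chil1, Atf3 and Fgf21 did not pass in stimulated cells, with log2 fold changes of 1.33, 1.29, -0.19 and -0.22 in stimulated cells (adjusted p 0.0648, 0.117, 0.285 and 0.361). The difference itself was tested as an interaction of LNA1 with isoproterenol, which called 0 genes in edgeR with 393 at an unadjusted p under 0.05. DESeq2 called 4 (257 unadjusted), limma-voom 0 (415 unadjusted) and the edgeR fit with no filter 82.

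**Figure D4:**
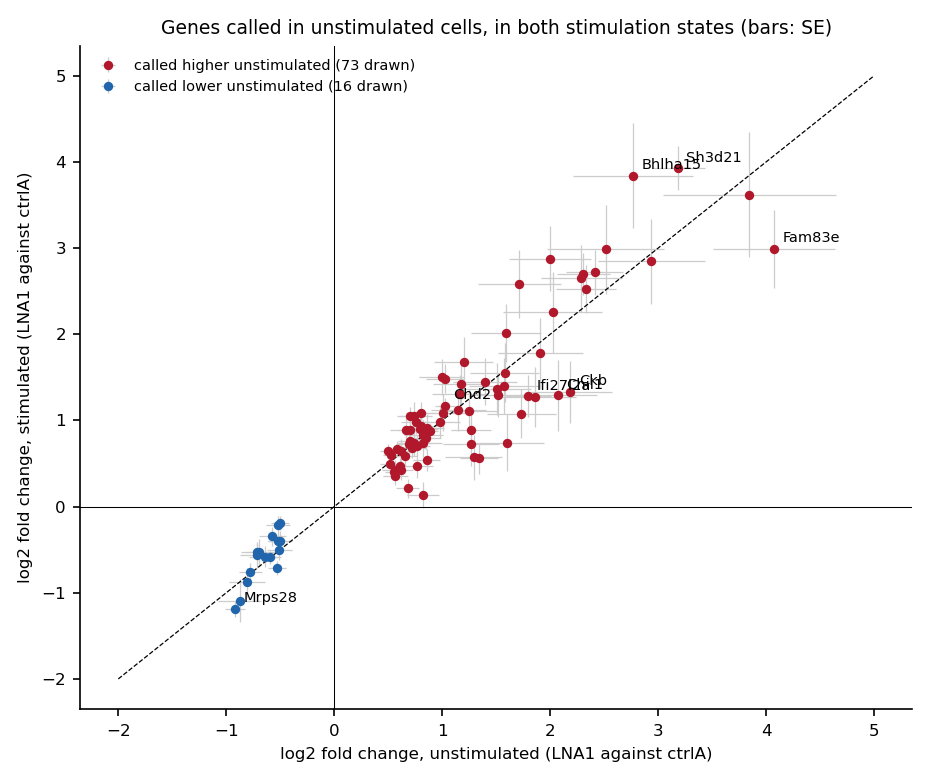
Log2 fold change of LNA1 against ctrlA in stimulated cells (vertical axis) against that in unstimulated cells (horizontal axis) for the genes called in unstimulated cells, with SE bars and a dashed line of equal change; Pgk1-rs7 is not drawn. All red points lie above 0 and all blue points below 0 on both axes.

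LNA2, which is directed against another site of Gm15551, was compared with LNA1 in stimulated cells. Those libraries are not in the contrast that chose the 90 genes, but they are in the same fit and so had a part in its calls through the replicate terms and the spread. In that direct contrast 513 genes were called (3.43%). Among these, 33 of the 74 genes higher with LNA1 were called lower with LNA2 than with LNA1 (1.98% of all tested genes were) and 4 were called higher (1.45%). Of the 16 genes lower with LNA1, 8 were called higher with LNA2 than with LNA1 and 0 lower. Sh3d21 had 1.44 ± 0.622 CPM with LNA2 and 12.8 ± 6.02 CPM with LNA1 (SD, n = 3 each), which differed by -3.12 on the log2 scale (edgeR adjusted p 8.23e-06). Fam83e differed by -3.60 (adjusted p 4.97e-04), Fes by -2.37 (adjusted p 7.34e-05), Carmil2 by -2.54 (adjusted p 7.34e-05), Chd2 by -1.12 (adjusted p 1.11e-05) and Mrps28 by 0.90 (adjusted p 8.42e-05).

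Other genes rose with both oligonucleotides. Against stimulated ctrlA cells LNA2 gave 823 called genes (5.51%), and 66 of the 74 genes had a positive log2 fold change with LNA2 (48.2% of all tested genes did) and 31 were called higher (3.3%). Of the 16 genes lower with LNA1, 11 had a negative value with LNA2 (51.8%) and 1 was called lower (2.2%). Ifi27l2a and Calr3, a gene of a calreticulin relative, had log2 fold changes of 2.21 and 1.69 with LNA2 in stimulated cells (adjusted p 1.12e-04 and 1.09e-04 in edgeR), beside 1.79 and 1.27 with LNA1 in unstimulated cells. Both were higher with LNA2 than with LNA1 in stimulated cells, by 0.93 and 0.81 (adjusted p 0.0145 and 0.00755). Ckb did not pass there, with a log2 difference of -0.02 (SE 0.33). In unstimulated cells, where both comparisons use the same ctrlA libraries, LNA2 gave -0.26 for Sh3d21, 1.76 for Fam83e (adjusted p 0.172), 0.05 for Chd2 and 2.25 for Ifi27l2a beside 3.18, 4.07, 1.02 and 1.79 with LNA1.

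**Figure D5:**
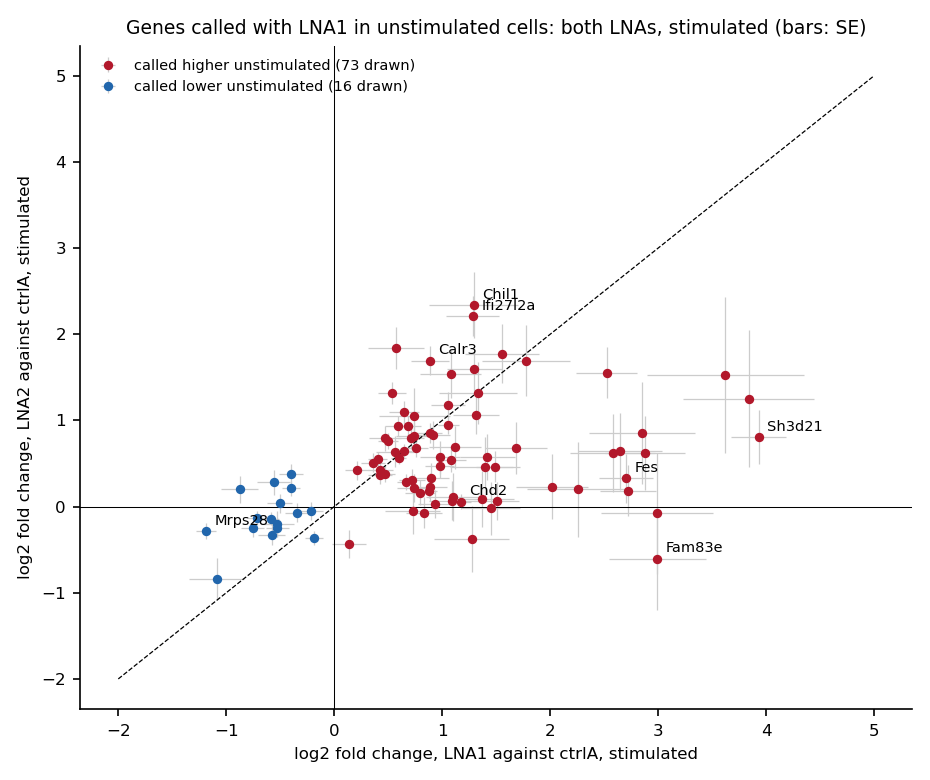
Log2 fold change against stimulated ctrlA cells with LNA2 (vertical axis) and with LNA1 (horizontal axis) for the genes called with LNA1 in unstimulated cells, with SE bars and a dashed line of equal change; Pgk1-rs7 is not drawn. Sh3d21, Fam83e, Fes and Chd2 lie far below the line, while Ifi27l2a, Chil1 and Calr3 lie above it.

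Transcripts that hold shorter matches to the LNA1 site were then listed. Cenpl and Gm17494 are shown because they were the tested genes with the longest run, of 13 bases. Atp7a and Tfrc, out of 18 tested genes with a run of 12 bases, are shown because they were called lower in stimulated cells, and St7, Arid1b and Mllt6 because they were called lower in unstimulated cells. These 5 were thus chosen after their values were seen. Capitals mark the bases that pair with LNA1 in 1 unbroken run.

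Cenpl site: caaAATCTCAGTCATC

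Gm17494 site: TCTAATCTCAGTCcac

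Atp7a site: tgtgATCTCAGTCATC

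Tfrc site: cgccATCTCAGTCATC

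St7 site: aCTAATCTCAGTttgc

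Arid1b site: gtagcTCTCAGTCATC

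Mllt6 site: gctagTCTCAGTCATC

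On GRCm38 the Cenpl site lies in the coding sequence of exon 4 (chr1:161082915-161082930, plus strand) and the Tfrc site in that of exon 9 (chr16:32619101-32619116, plus strand). The Mllt6 site lies in the 3′ UTR (chr11:97684865-97684880, plus strand). The sites of Gm17494 (chr3:122289774-122289789, minus strand), Atp7a (chrX:106115268-106115283, plus strand), St7 (chr6:17835079-17835094, plus strand) and Arid1b (chr17:5127227-5127242, plus strand) were found in transcripts annotated as retained introns.

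In all, 20 tested genes shared at least 12 consecutive bases with the site, 2 of them 13 bases, and 0 were called in unstimulated cells in edgeR. Their median log2 fold change was -0.06, against -0.02 over all tested genes. Cenpl, a centromere protein gene, had -0.40 (adjusted p 0.288), Gm17494 had 0.01 (adjusted p 0.994), Atp7a, which encodes a copper exporter, had -0.32 (adjusted p 0.195) and Tfrc, the transferrin receptor gene, had -0.42 (adjusted p 0.225). In stimulated cells 3 of the 20 were called lower, beside 0.328% of all tested genes. They were Cenpl, Atp7a and Tfrc, which fell by 0.75, 0.55 and 0.68 on the log2 scale (edgeR adjusted p 0.0163, 0.0106 and 0.0178). With a run of exactly 11 bases, a class added after the data were seen, 83 genes were tested, of which 3 were called lower (3.61%, beside 0.107% of all tested genes) and 0 higher. These were St7, Arid1b and Mllt6, and Mllt6, which encodes a chromatin reader, fell by 0.52 (edgeR adjusted p 0.0101), a call lost in 4 of 12 fits that each left out 1 library (adjusted p up to 0.0758). Of 14 tested genes that shared at least 11 bases with the sequence taken as ctrlA, 0 were called lower and 1 higher in unstimulated cells. In stimulated cells 0 were called lower and 2 higher. Over all tested genes 0.107% were lower and 0.495% higher in unstimulated cells, and 0.328% and 1.12% in stimulated cells. The 2 genes higher in stimulated cells, Nipal1 and Slc25a22, had log2 fold changes of 1.17 and 0.51 there. Both were among 3 tested genes with a run of 12 bases. A match describes the sequence only, and cleavage at these sites was not measured.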

How the data were processed

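Polyadenylated RNA was sequenced as paired-end reads (NEBNext Ultra II libraries, NovaSeq). The authors quality-filtered the reads (cutadapt) and ran salmon on Gencode M22 (GRCm38), with versions not given in the sources used here. The deposited values are expected counts per gene, all whole numbers and not scaled to depth. Fragments that fit several transcripts are shared by probability, and use of strand was not stated.

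The tests used edgeR 4.0.16 under R 4.3.3. Genes passed filterByExpr (minimum count 10, minimum total 15), TMM was applied, and a quasi-likelihood model with 1 term per group and the replicate number as a block was fitted to all 18 libraries. A gene was called at a Benjamini-Hochberg adjusted p under 0.05 and an absolute log2 fold change above 0.5. The edgeR fit returns no SE, so each SE given was derived as the absolute log2 fold change over the square root of its F statistic. The replicate numbers come from the labels. Deviations of the libraries of 1 number from their group means correlated within pairs (r = 0.704, 0.333 and 0.444 for numbers 2, 3 and 4), against at most -0.469, 0.321 and 0.336 with an LNA1 library of another number, so that numbers 3 and 4 were hardly set apart. DESeq2 1.42.0 and limma-voom (limma 3.58.1) were alternatives, and the fit was tested on simulated data.

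Genes named by rule were Sh3d21, Fam83e, Gm15551 and Camk2d; the 14 largest rises and up to 10 largest falls among called genes of at least 1 CPM over the 6 libraries with groups that did not overlap and 1 sign in all pairs; up to 4 called genes of each list, or the 2 of smallest p; and tested genes with the longest match to LNA1. A gene that this rule names is not reported here. The comparison, its genes and the lists were chosen with earlier results of these data known. Matches were searched in spliced GENCODE M21 transcripts, as introns were not analysed here, and that annotation held 99.5% of the genes. Library chi-square tests per degree of freedom ran from 4.32 to 177, so no library was counted as a repeat of another. Floors of 3 counts cover counting error only.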

Additional observations from a re-analysis of the deposited data

How the results depend on the processing

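Calls depended on the pairing. Without the replicate block 0 genes were called in unstimulated cells (0 higher, 0 lower and so 0 of 1 direction in both states) and 2 in stimulated cells. With neither the block nor replicate 2, an alternative chosen after seeing the data, 15 were called (12 higher, 3 lower, 15 of the same direction when stimulated), and 36 in stimulated cells. With no filter on low counts, 302 of 35899 genes were called (217 higher, 85 lower, 250 of the same direction), 457 in stimulated cells and 82 in the interaction, and DESeq2 called 28 lower and 4 in the interaction. The cause was not tested. Other tools and scalings called 86 to 127 genes.

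In fits that left out a library or a replicate number, calls ranged from 4 to 79 in unstimulated cells (3 to 68 higher, 1 to 15 lower), 4 to 78 had the same direction when stimulated, and 10 to 207 were called in stimulated cells. All called genes that were tested kept their direction, which was largely fixed beforehand, as each had 1 sign in all 3 pairs. Of the 74 higher and 16 lower genes, 12 and 3 were called in each of the 12 fits without 1 library, and 3 and 1 in all 15 fits. Gm15551 ranged from -0.99 to -0.09 and was not called in any fit. Camk2d changed sign with no filter (-0.00053). Matches of 11 bases or more held 3 genes called lower and full-length sites with 2 mismatches 1, both added after seeing the data, against 0 for 12 bases. With 3 counts of Gm15551 in LNA1 replicates 3 and 4, depth limits what can be said of the knockdown.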
